A study of Caenorhabditis elegans with 11 samples.

Results

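The genes ugt-3, gst-35 and C15C6.5 of Caenorhabditis elegans were followed through animals treated with tryptophan-betaxanthin or with either of its ester derivatives. They are 3 of the 26281 probe sets that the annotation assigns to a single gene, and they were taken because they had the highest rise with tryptophan-betaxanthin over the water control. That rise is therefore given as a description, and tests are given where the esters are compared with each other. Each of the 3 has 1 probe set, and all 3 lay above the median of all tested probe sets (a log2 signal of 2.28) in their mean over the arrays.

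Expression was measured in whole JK1466 animals, a strain that carries gld-1(q485) over a chromosome marked with dpy-5(e61) and unc-13(e51) and whose germline forms tumors, on C. elegans Gene 1.1 ST arrays. All animals, those of the water control included, were fed bacteria carrying the gld-1 RNAi construct, and they were at the L4 or young adult stage when collected. Larvae received 25 µM of a compound for 48 h at 20 ºC, starting 16 to 18 h after hatching. There were 3 arrays for tryptophan-betaxanthin, 3 for tryptophan methyl ester-betaxanthin, 3 for tryptophan benzyl ester-betaxanthin and 2 for water, each from a trial that the labels call independent. Water had arrays of the first and second trials, and the water array of the third was not analysed here. Betaxanthins are yellow plant pigments of the betalain family, and in the esters the carboxyl group of the tryptophan unit carries a methyl or a benzyl group. Values are log2 signals, on which 1 unit is a doubling.

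UDP-glucuronosyltransferases, the family of ugt-3, attach a sugar to small lipophilic molecules, which makes them more soluble and easier to excrete. Glutathione S-transferases, the family of gst-35, join glutathione to reactive compounds. Both belong to the conjugation phase of drug metabolism, which in worms follows oxidation by cytochromes P450 and precedes export by ABC transporters, and much of it takes place in the intestine. C15C6.5 is annotated as a non-coding RNA gene and has no role known here. In the RefSeq gene table (assembly WBcel235) ugt-3 lies on chromosome V, gst-35 on chromosome II and C15C6.5 on chromosome I, where it overlaps the tRNA gene C15C6.t1.

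ugt-3 had a steady high signal with tryptophan-betaxanthin and was not high with the methyl ester. Its signals were 9.29, 9.19 and 9.19 in the tryptophan-betaxanthin arrays of trials 1, 2 and 3. They were 4.37, 4.08 and 2.20 in the methyl ester arrays, 7.92, 7.93 and 4.53 in the benzyl ester arrays, and 3.80 and 4.11 with water. The tryptophan-betaxanthin arrays lay above every other array, and the benzyl ester arrays above every methyl ester and water array, the one of the third trial by little. Group means were 9.23 ± 0.06 for tryptophan-betaxanthin, 3.55 ± 1.17 for the methyl ester, 6.79 ± 1.96 for the benzyl ester (SD, n = 3 each) and 3.95 ± 0.22 for water (SD, n = 2). The mean with tryptophan-betaxanthin was 5.27 above water, a 38.7-fold ratio.

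gst-35 was high with all 3 compounds. Its signals were 7.14, 7.03 and 6.52 with tryptophan-betaxanthin, 6.77, 6.65 and 6.85 in the methyl ester arrays, 6.39, 6.75 and 4.48 in the benzyl ester arrays, and 4.45 and 4.13 with water. Every compound array except the benzyl ester array of the third trial was well above both water arrays, and that one exceeded the higher water array by 0.02. Group means were 6.90 ± 0.33 for tryptophan-betaxanthin, 6.76 ± 0.10 for the methyl ester, 5.87 ± 1.22 for the benzyl ester (SD, n = 3 each) and 4.29 ± 0.23 for water (SD, n = 2). With tryptophan-betaxanthin the mean was 2.60 above water, a 6.08-fold ratio.

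C15C6.5 was high with tryptophan-betaxanthin alone. Its signals were 5.52, 4.89 and 6.39 with tryptophan-betaxanthin, 1.67, 1.62 and 2.61 in the methyl ester arrays, 3.92, 1.49 and 2.89 in the benzyl ester arrays, and 2.99 and 1.74 with water. The tryptophan-betaxanthin arrays stood clear of all others, while the esters and water overlapped. Group means were 5.60 ± 0.75 for tryptophan-betaxanthin, 1.96 ± 0.56 for the methyl ester, 2.77 ± 1.22 for the benzyl ester (SD, n = 3 each) and 2.36 ± 0.88 for water (SD, n = 2). The ester and water means lay around the median of all probe sets, where signals may be close to background. With tryptophan-betaxanthin the mean was 3.23 above water (2.61 to 3.86 with 1 array left out), and no fold ratio is given because the water signals may be background.

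**Figure D1:**
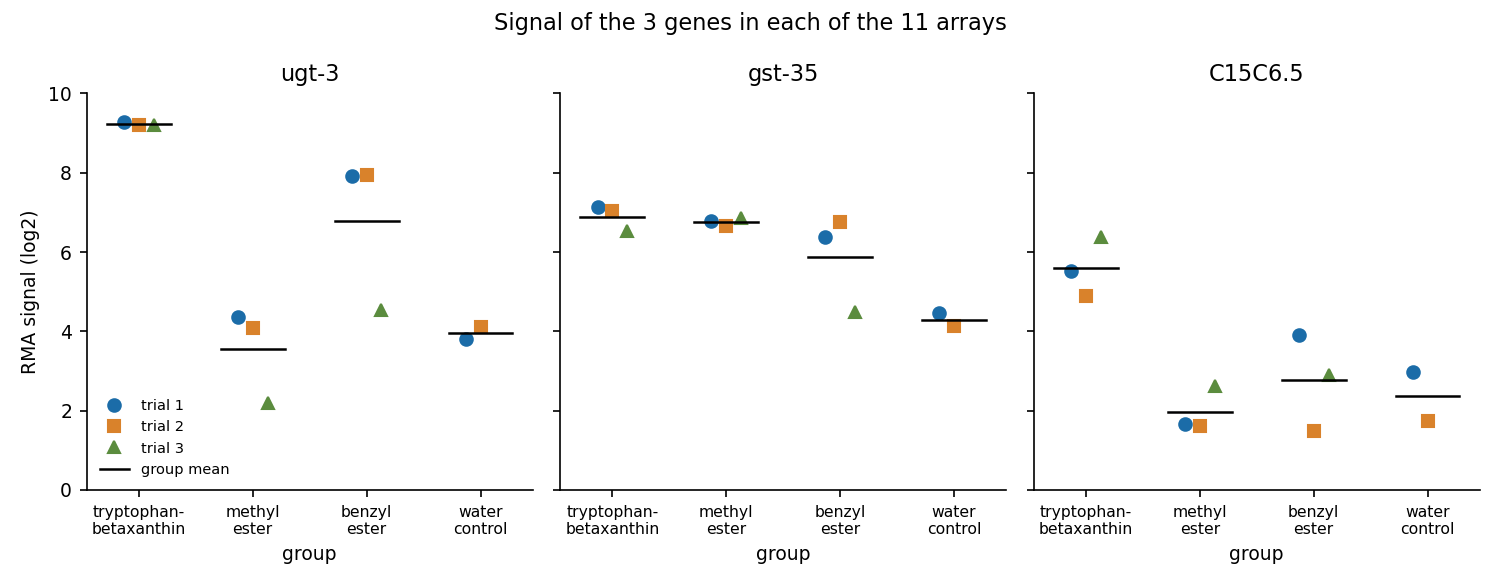
RMA signal (log2, vertical axis) of ugt-3, gst-35 and C15C6.5 in each array, by group, with the trial shown by colour and symbol and the group mean as a line. The tryptophan-betaxanthin arrays of ugt-3 lie between 9.19 and 9.29, gst-35 is high in all methyl ester arrays (6.65 to 6.85), and C15C6.5 is above 4.8 with tryptophan-betaxanthin only.

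These 3 differences ranked 1 (ugt-3), 2 (C15C6.5) and 3 (gst-35) of the 26281 single-gene probe sets, which is how the genes were chosen. Just outside were M03A1.8 with a difference of 2.12, the folate transporter gene folt-2 with 2.12 and C35A5.3 with 1.92. Of all tested probe sets, 16.2% had tryptophan-betaxanthin arrays that lay wholly above the water arrays, and 0.00374% passed an adjusted p of 0.05 in limma. All 3 genes did not overlap with water in this comparison, and nothing is read from it because it chose them. In bulk RNA of whole animals, more RNA per cell and more cells of a type cannot be told apart.

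The order of the group means differed from gene to gene. For ugt-3 it was tryptophan-betaxanthin, benzyl ester, water and methyl ester, and the last pair overlapped. For gst-35 it was tryptophan-betaxanthin, methyl ester, benzyl ester and water, and the 3 compounds overlapped each other in part. For C15C6.5 it was tryptophan-betaxanthin, benzyl ester, water and methyl ester, with overlap in the last 3. The methyl ester minus tryptophan-betaxanthin difference was -5.68 for ugt-3, -0.14 for gst-35 and -3.63 for C15C6.5, and the benzyl ester minus tryptophan-betaxanthin difference was -2.43, -1.03 and -2.83 for the same genes in that order. Dose and time were matched, and no test is given because the tryptophan-betaxanthin arrays chose the genes.

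The esters were compared with each other, the 1 pair of compounds whose arrays took no part in the choice of genes. The fit held all groups, so the SE, interval and p also rested on the spread of the arrays that chose the genes. For ugt-3 these had an SD of 0.06 (tryptophan-betaxanthin) and 0.22 (water), against 1.17 (methyl ester) and 1.96 (benzyl ester). The test was therefore free of the choosing arrays only where the ester arrays were fitted alone. ugt-3 was lower with the methyl ester than with the benzyl ester by a difference of -3.25 (SE 0.85, 95% interval -5.16 to -1.33). The arrays of the esters did not overlap, with a gap of 0.17, and the adjusted p was 0.526 in limma with all 26761 probe sets in the adjustment, so the difference did not pass. Within trials 1, 2 and 3 it was -3.55, -3.86 and -2.33, the same direction in 3 of 3. When the trial number entered the fit as a block, the interval narrowed to -4.47 to -2.03 and the adjusted p was 0.0712. Without the benzyl ester array of the third trial the difference was -4.38 and the adjusted p 0.00983. With only the ester arrays in the fit, the SE rose to 1.07 and the limma adjusted p to 0.99997 (unadjusted p = 0.0229). The adjusted p thus depended strongly on which arrays entered.

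For gst-35 the methyl ester minus benzyl ester difference was 0.89 (SE 0.48, 95% interval -0.19 to 1.96, limma adjusted p = 1.00). For C15C6.5 it was -0.80 (SE 0.62, 95% interval -2.19 to 0.59, limma adjusted p = 1.00). Both intervals hold 0 and reach beyond a 2-fold difference on 1 side. They too come from the fit of all groups, and with only the ester arrays the SE was 0.58 for gst-35 and 0.63 for C15C6.5. In the fit with the trial block the interval was 0.03 to 1.74 for gst-35, which does not hold 0 (limma adjusted p = 0.718), and -1.67 to 0.07 for C15C6.5 (limma adjusted p = 0.772). None of the 3 genes passed the adjusted threshold between the esters, where 0.149% of all probe sets did (0.235% with the trial block, 63 against 40 probe sets). At an unadjusted p of 0.05, 1 of the 3 (ugt-3) passed, against 4.33% of all probe sets, and with the block 2 of the 3 (ugt-3 and gst-35), against 6.77%. ugt-3 was also the 1 gene with all methyl ester arrays below all benzyl ester arrays, which 3.96% of probe sets showed.

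Each ester was also set beside water. The water arrays took part in the choice of the genes, which favoured low water values, so these differences are descriptions with no test. gst-35 had a mean 2.46 above water with the methyl ester and 1.58 above water with the benzyl ester. The methyl ester arrays were all above both water arrays, by at least 2.19. Without the benzyl ester array of the third trial the benzyl ester difference of gst-35 was 2.27.

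ugt-3 had a mean 2.84 above water with the benzyl ester, and its lowest benzyl ester array was above the higher water array by 0.42. Without the benzyl ester array of the third trial the difference was 3.97. With the methyl ester the ugt-3 difference was -0.40, and it turned to 0.27 without the methyl ester array of the third trial. For C15C6.5 the difference was -0.40 under the methyl ester and 0.40 under the benzyl ester. The sign of each C15C6.5 difference turned when 1 array was left out (0.22 for the methyl ester without the water array of the first trial, and -0.22 for the benzyl ester without the water array of the second).

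The methyl ester arrays lay wholly above water for 1 of the 3 genes (gst-35), against 20.4% of all probe sets, and the benzyl ester arrays for 2 of 3 (ugt-3 and gst-35), against 19% of all probe sets. Nothing is read from these counts either. Over all probe sets, 0.258% passed the adjusted threshold under the methyl ester and 0.564% under the benzyl ester. The labels call the trials independent. The p-values of the fit without the trial block rest on the spread of arrays within groups, pooled over all groups. That fit leaves out the pairing of ester arrays by trial number, which only the fit with the trial block takes in.

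The third trial stood apart for ugt-3 with both esters and for gst-35 with the benzyl ester. For ugt-3 the array of the third trial minus the mean of the earlier trials was -0.05 with tryptophan-betaxanthin, -2.02 under the methyl ester and -3.39 under the benzyl ester. For gst-35 these differences were -0.56, 0.14 and -2.09. For C15C6.5 they were 1.19, 0.97 and 0.18, so ugt-3 and gst-35 were lowest of their benzyl ester arrays in trial 3 and C15C6.5 was not. The spread of C15C6.5 with the benzyl ester lay between trials 1 and 2 (3.92 and 1.49). Water has no array of that trial here.

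Other genes of the same arrays moved in the third trial too. The 6 yolk protein genes (vit-1 to vit-6), made in the adult intestine, had a list mean of 6.24 in the benzyl ester array of the third trial, against 8.86 and 8.80 in those of the earlier trials. With the methyl ester their list mean was 7.28 in the third trial, against 8.73 and 8.99 in the earlier ones. Moulting genes (9 of 10 measured) went the other way as a list, with means of 7.06 against 5.98 and 6.05 for the benzyl ester. Of these genes mlt-7 (5.96), bli-5 (6.54) and nas-37 (6.48) lay between the values of the earlier trials. The hypodermis list (7.06 against 5.76 and 6.02) and body wall muscle list (8.67 against 7.67 and 8.04) also rose in that array. The neuron list (6.98 against 6.90 and 7.10) did not. The 5 measured of 6 intestine markers were not low in that array, with a list mean of 8.55 against 7.82 and 8.15. Over all arrays the intestine list mean ranged from 8.06 to 8.26 with tryptophan-betaxanthin, 8.12 to 8.58 with the methyl ester, 7.82 to 8.55 with the benzyl ester and 7.82 to 7.94 with water. The part of these shifts in the ugt-3 and gst-35 values was not tested.

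The germline marker list (glp-1, pgl-1, glh-1 and mex-5, 4 of 4 measured) ranged from 5.97 to 6.37 with tryptophan-betaxanthin, 4.61 to 5.85 in the methyl ester arrays, 5.05 to 5.80 in the benzyl ester arrays and 6.14 to 6.22 with water. gld-1, the gene that the bacteria target, had signals of 7.12, 7.45 and 7.14 with tryptophan-betaxanthin, 6.74, 7.33 and 5.91 in the methyl ester arrays, 6.44, 5.50 and 6.27 in the benzyl ester arrays, and 7.32 and 7.43 with water. Since every group was fed the same bacteria, gld-1 cannot check the knockdown. In all marker lists no measured gene had a mean below the median signal. Array medians ranged from 2.23 to 2.32, and the lowest correlation between a pair of arrays was 0.96.

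The relatives of ugt-3 on the chromosome had other patterns. ugt-6, ugt-4 and ugt-5 follow one another beside ugt-3 on chromosome V, and ugt-6 is its measured neighbour. ugt-6 had signals of 5.79, 5.90 and 6.11 with tryptophan-betaxanthin, 6.14, 6.17 and 6.80 in the methyl ester arrays, 6.28, 6.28 and 7.07 in the benzyl ester arrays, and 5.52 and 5.51 with water. Its differences from water were 0.42 with tryptophan-betaxanthin, 0.86 with the methyl ester (limma adjusted p = 0.202) and 1.03 with the benzyl ester (limma adjusted p = 0.136). ugt-4, named after its values were seen, differed from water by 0.05, 0.25 and 0.18 with the compounds in the same order. On the other side the next measured gene is the non-coding RNA ZC455.15, at -0.14 with tryptophan-betaxanthin and -0.08 with the methyl ester.

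ugt-5, the farthest of the 3 UDP-glucuronosyltransferase genes beside ugt-3, rose with the methyl ester. Its signals were 2.87, 2.73 and 2.57 with tryptophan-betaxanthin, 4.67, 4.88 and 5.50 in the methyl ester arrays, 3.61, 3.86 and 4.29 in the benzyl ester arrays, and 2.81 and 2.82 with water. The methyl ester arrays were highest, the benzyl ester arrays came next, and tryptophan-betaxanthin overlapped water. The methyl ester minus water difference was 2.20 (SE 0.25, limma adjusted p = 0.0132) and the benzyl ester minus water difference 1.10 (limma adjusted p = 0.103). Thus ugt-5 and ugt-3 had opposite orders of compounds: tryptophan-betaxanthin minus water was -0.10 for ugt-5 and 5.27 for ugt-3. The call of ugt-5 with the methyl ester was lost without either water array, where 1 (without the first trial's) and 0 (without the second trial's) probe sets passed in all.

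Among the measured neighbours of gst-35, the nearest on either side had differences close to 0 and some further ones did not. gst-34, the next gene, differed from water by 0.11 with tryptophan-betaxanthin, -0.13 under the methyl ester and -0.05 under the benzyl ester. The next 5 measured genes on that side are gst-32, Y53F4B.36, gst-31, gst-39 and gst-29, all named after their values were seen. gst-32 and gst-31 differed by 0.13 and -0.03 with tryptophan-betaxanthin and by 0.07 and -0.10 with the methyl ester. gst-34, gst-32 and gst-31 had mean signals below the median of all probe sets, where a change may be missed. gst-29 differed by -0.21 with tryptophan-betaxanthin, 0.67 under the methyl ester and 0.73 under the benzyl ester (limma adjusted p = 0.276 and 0.255 for the esters). gst-39 differed by -0.29, 0.43 and 0.41 and Y53F4B.36 by -0.28, -0.66 and -0.59 with the compounds in the same order, and neither passed. spsb-1, on the other side of gst-35, differed from water by 0.11, 0.14 and -0.01 with tryptophan-betaxanthin, the methyl ester and the benzyl ester.

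**Figure D2:**
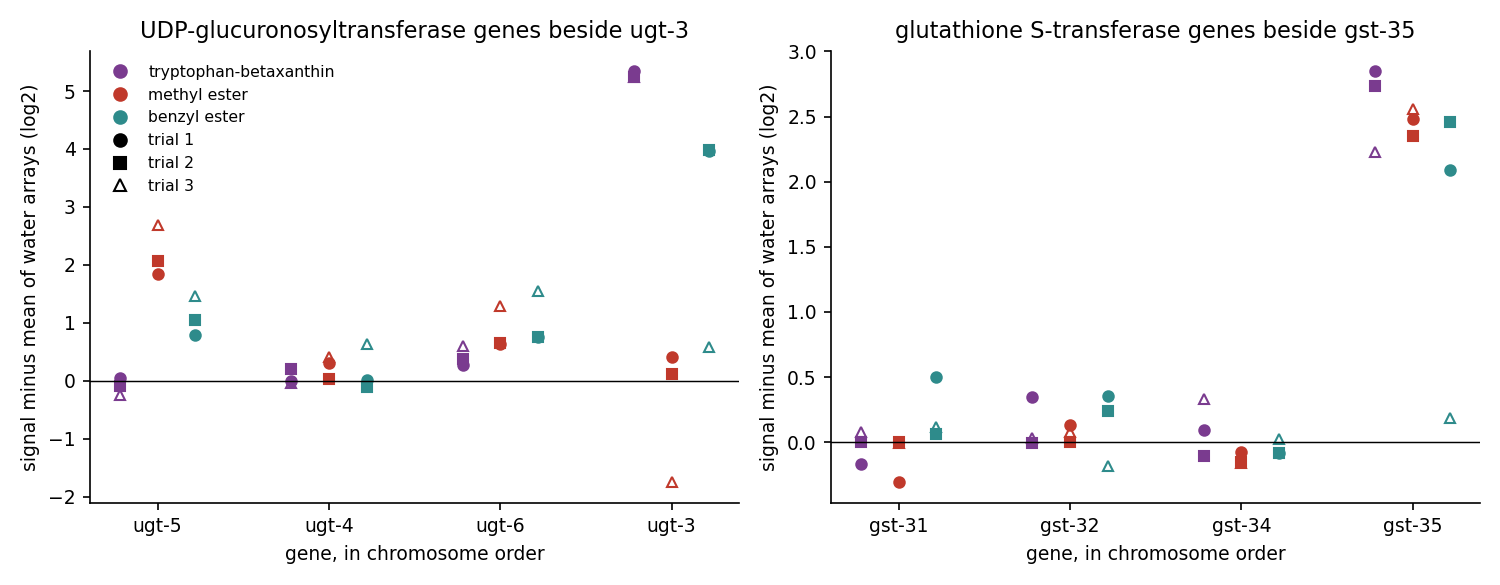
Signal minus the mean of the water arrays (log2, vertical axis) for the transferase genes next to ugt-3 (left) and gst-35 (right), each point an array, coloured by compound and with the trial as symbol; gst-29, gst-39 and Y53F4B.36 of that run are not drawn. ugt-3 is highest with tryptophan-betaxanthin (mean 5.27) and ugt-5 with the methyl ester (mean 2.20), and gst-35 lies at means of 2.60, 2.46 and 1.58 beside 3 genes near 0.

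The whole family of 67 measured UDP-glucuronosyltransferase genes was examined beside ugt-3, which was itself chosen for its rise with tryptophan-betaxanthin. The other 66 ranged from -0.80 (ugt-28) to 1.21 (ugt-21) in that comparison, with a median of 0.05, against 0.01 over all tested probe sets. There 0 of the 66 passed the adjusted threshold (8 higher and 5 lower at an unadjusted p of 0.05), as did 0.00374% of all probe sets. No share over all probe sets is given for the unadjusted threshold against water, so nothing is read from such counts here or below. Only ugt-21 of the 66 exceeded a difference of 1, with a mean of 4.98 ± 0.29 for tryptophan-betaxanthin and 3.77 ± 0.14 for water. With the methyl ester 2 genes rose (0.224% of all probe sets did) and 0 fell (0.0336% did), namely ugt-5 and ugt-41 (0.93, 2.83 ± 0.16 with the methyl ester and 1.90 ± 0.06 with water, limma adjusted p = 0.0236, lost in 7 of 19 alternatives, among them without either water array). The mean of ugt-41 over all arrays, 2.17, lay below the median of 2.28, where signals may be close to background. The family median without ugt-3 was 0.25 under the methyl ester and 0.28 under the benzyl ester, against 0.01 over all tested probe sets in both.

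With the benzyl ester 3 genes of the family rose and 0 fell, where 0.452% of all probe sets rose and 0.112% fell. ugt-48 differed from water by 1.35 (5.46 ± 0.24 with the benzyl ester and 4.11 ± 0.02 with water, limma adjusted p = 0.00411). ugt-53 differed by 1.78 (4.55 ± 0.26 and 2.77 ± 0.31, limma adjusted p = 0.0322) and ugt-2 by 0.75 (3.36 ± 0.13 and 2.61 ± 0.00, limma adjusted p = 0.0209). None of these genes is a neighbour of ugt-3, and each call was lost without either water array (for ugt-53 in 8 of 20 alternatives). Between the esters 0 of the other 66 passed, where 0.149% of all probe sets did. At an unadjusted p of 0.05, 6 were higher and 4 lower with the methyl ester, where 4.33% of all probe sets passed in either direction. The family as a set was not tested. The difference of ugt-3 with the benzyl ester, 2.84, was larger than that of any of the other 66, the next being ugt-53. Nothing is read from this rank, because the water arrays took part in choosing ugt-3 and not the others.

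Among 49 measured glutathione S-transferase genes, the other 48 ranged from -0.73 (gst-15) to 1.35 (gst-9) with tryptophan-betaxanthin, and gst-9 was the 1 that exceeded 1. Their median was -0.05, against 0.01 over all probe sets. Of the 48, 0 passed (2 higher and 5 lower at an unadjusted p of 0.05), where 0.00374% of all probe sets did. gst-9 had means of 5.86 ± 0.49 with tryptophan-betaxanthin and 4.52 ± 0.05 with water. With the methyl ester the other 48 reached at most 1.14 (gst-44), against 2.46 for gst-35, and with the benzyl ester at most 1.09 (gst-9), against 1.58 for gst-35. Nothing is read from these ranks, because the water arrays took part in choosing gst-35 and not the others.

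With the esters, 1 (methyl ester) and 3 (benzyl ester) of the other 48 glutathione S-transferase genes passed the adjusted threshold, all lower. Of all probe sets, 0.0336% and 0.112% were called lower with the methyl and the benzyl ester. At an unadjusted p of 0.05, 12 were higher and 5 lower with the methyl ester, and 12 higher and 10 lower with the benzyl ester. No share over all probe sets is given for that threshold, so nothing is read from these counts. The medians were 0.03 and 0.11. gst-30 fell with the methyl ester (-0.88, 1.45 ± 0.05 with the methyl ester and 2.34 ± 0.07 with water, limma adjusted p = 0.0475, lost in 12 of 19 alternatives) and with the benzyl ester (-0.91, limma adjusted p = 0.03). The mean of gst-30 over all arrays, 1.93, lay below the median of 2.28, where signals may be close to background. gst-12 fell with the benzyl ester to 5.27 ± 0.18, against 7.28 ± 0.07 with water (limma adjusted p = 0.0158). gst-4, a widely used reporter of the stress factor SKN-1, fell with the benzyl ester by a difference of -1.18 (7.14 ± 0.30 and 8.32 ± 0.07, limma adjusted p = 0.0301). These calls were lost without either water array. Between the esters 0 of the other 48 passed, where 0.149% of all probe sets did. At an unadjusted p of 0.05, 5 were higher and 4 lower with the methyl ester, where 4.33% of all probe sets passed in either direction. This family as a set was not tested either.

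**Figure D3:**
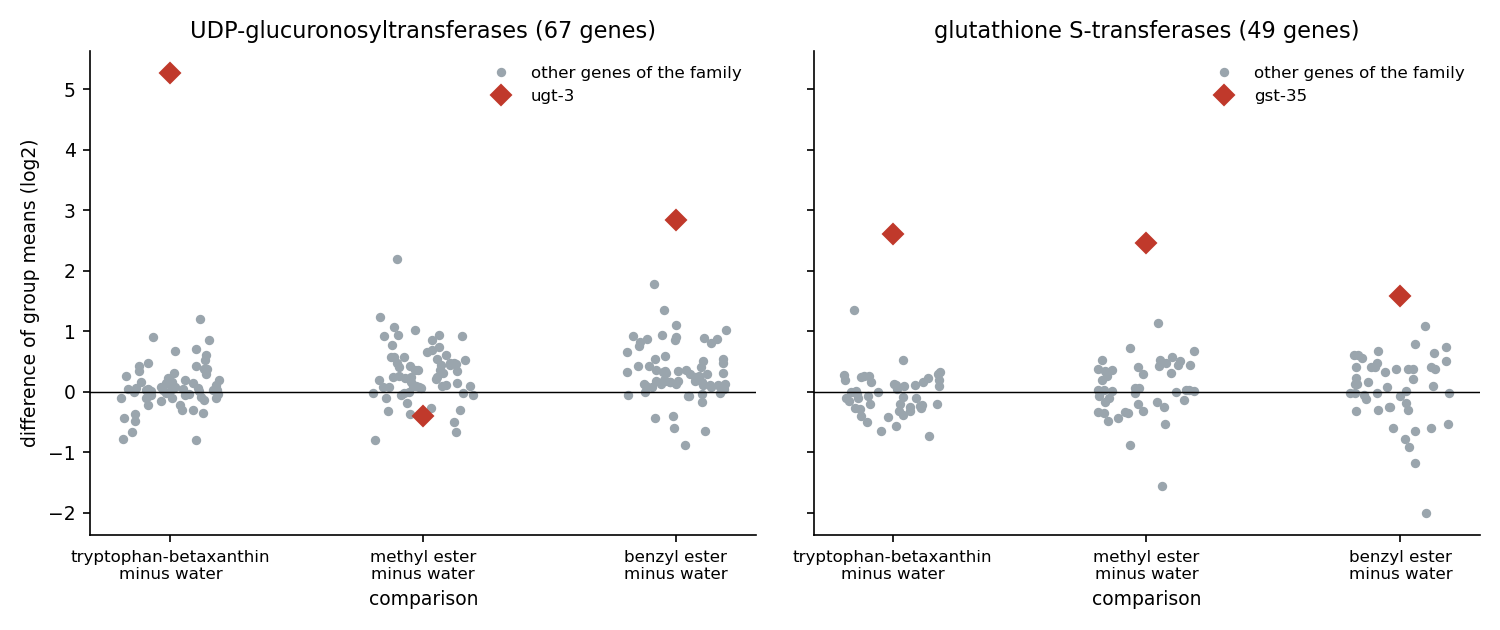
Difference of each group mean from the water mean (log2, vertical axis) for every measured UDP-glucuronosyltransferase (left, 67 genes) and glutathione S-transferase (right, 49 genes), with ugt-3 and gst-35 as diamonds; points are spread sideways only to be seen. ugt-3 lies at 5.27 with tryptophan-betaxanthin, the difference it was chosen for, at -0.40 with the methyl ester and at 2.84 with the benzyl ester, and gst-35 at 2.60 (also the difference it was chosen for), 2.46 and 1.58.

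The genes examined for the other steps of drug metabolism had small differences with tryptophan-betaxanthin, and oxidation was represented by a single cytochrome P450 subfamily. The 10 measured genes of the cytochrome P450 subfamily CYP-35, which oxidise foreign compounds, ranged from -0.21 to 0.33 there, with 0 past the adjusted threshold and 0 at an unadjusted p of 0.05. Only 0.00374% of all probe sets passed the adjusted threshold with tryptophan-betaxanthin. A count of 0 there says little about this list or those that follow. Means of cyp-35B3 (1.38 with tryptophan-betaxanthin and 1.16 with water), cyp-35B2 (1.39 and 1.22) and cyp-35A3 (1.30 and 1.11) lay below the median of 2.28. A change may be missed at such signals. With the methyl ester 4 of the 10 rose (0.224% of all probe sets did) and with the benzyl ester 3 (0.452% did). With either ester 0 fell, where 0.0336% and 0.112% of all probe sets did. cyp-35A2 had means of 6.69 ± 0.47 with the methyl ester and 3.36 ± 0.01 with water, a difference of 3.33 (limma adjusted p = 0.00724). With the benzyl ester the cyp-35A2 difference was 2.76 (limma adjusted p = 0.00637), again lost without either water array. cyp-35C1 and cyp-35B1 rose as well, by 1.90 and 2.46 with the methyl ester (limma adjusted p = 0.00635 and 0.0146) and by 1.36 and 2.13 with the benzyl ester (limma adjusted p = 0.0131 and 0.0147). cyp-35D1, the last of the 4 that rose with the methyl ester (by 0.76 over water, limma adjusted p = 0.0381, lost in 10 of 19 alternatives), was the 1 gene of this list that passed between the esters, higher with the methyl ester by 0.81 (means 2.09 ± 0.17 and, for the benzyl ester, 1.28 ± 0.08, limma adjusted p = 0.0152, lost without the first or second methyl ester array or the second benzyl ester array). Between the esters 0.0374% of all probe sets were called higher and 0.112% lower with the methyl ester. Both ester means of cyp-35D1 lay below the median of 2.28, where signals may be close to background.

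Of 22 measured drug transporter genes of the P-glycoprotein and multidrug resistance protein families, 0 passed with tryptophan-betaxanthin, where they ranged from -0.58 to 0.45 (2 higher and 1 lower at an unadjusted p of 0.05). 1 of them, pgp-1, rose with the methyl ester, where 0.224% of all probe sets did. It had 3.70 ± 0.51 against 2.14 ± 0.16 in water, a difference of 1.56 (limma adjusted p = 0.0386, lost in 9 of 20 alternatives). 0 passed with the benzyl ester (2 higher and 1 lower at an unadjusted p of 0.05). A list of 5 genes, namely gcs-1 and gss-1 of glutathione synthesis, sqv-4 of UDP-glucuronate synthesis, gsr-1 and emb-8, ranged from -0.07 to 0.25 with tryptophan-betaxanthin. 0 of these 5 passed in any comparison (at an unadjusted p of 0.05, 1 was higher and 1 lower with the methyl ester and 1 lower with the benzyl ester). Between the esters 1 (emb-8) was higher with the methyl ester at that threshold, where 4.33% of all probe sets passed. gcs-1, the rate-limiting enzyme of glutathione synthesis, differed from water by -0.06 with tryptophan-betaxanthin, -0.28 under the methyl ester and -0.44 under the benzyl ester (limma adjusted p = 0.290 and 0.147 for the esters).

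0 of 15 regulators of xenobiotic and stress genes passed in any comparison, and with tryptophan-betaxanthin they ranged from -0.20 (nhr-176) to 0.40 (mdt-15). At an unadjusted p of 0.05, 1 regulator was higher with the methyl ester, and 1 was higher and 1 lower with the benzyl ester. skn-1, which directs many glutathione S-transferase genes, differed from water by 0.04 with tryptophan-betaxanthin, and ahr-1, the aryl hydrocarbon receptor, by -0.17. nhr-8, a nuclear receptor of xenobiotic defence, had the highest regulator difference with the benzyl ester, 0.87 (limma adjusted p = 0.350). A signal of a regulator's mRNA says nothing of its activity.

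C15C6.5, itself chosen for its rise with tryptophan-betaxanthin, was set beside the other non-coding RNA genes that overlap a tRNA gene, of which the array measures 228 with C15C6.5 included. The other 227 ranged from -0.80 to 1.01 with tryptophan-betaxanthin, with a median of 0.04. The highest of them was K11H3.11, with means of 2.49 with tryptophan-betaxanthin and 1.48 with water. Of the 227, only 12 had a mean signal at or above the median of all probe sets, so most could show little change, and 13 of the 228 had values identical to those of another. 0 of the other 227 passed in any of the 3 tested comparisons. The strand that a probe set reads was not given in the sources used here, so signal from C15C6.5 and from the tRNA gene C15C6.t1 cannot be told apart.

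The neighbours of C15C6.5 differed little from water with tryptophan-betaxanthin. R05D7.9, a non-coding RNA gene on one side, differed from water by 0.14 there, with a mean below the median of all probe sets. C15C6.1, the next measured gene on the other side, differed by 0.36 with tryptophan-betaxanthin, 0.89 with the methyl ester (limma adjusted p = 0.128) and 0.83 with the benzyl ester (limma adjusted p = 0.109). C15C6.5 itself was low with both esters.

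**Figure D4:**
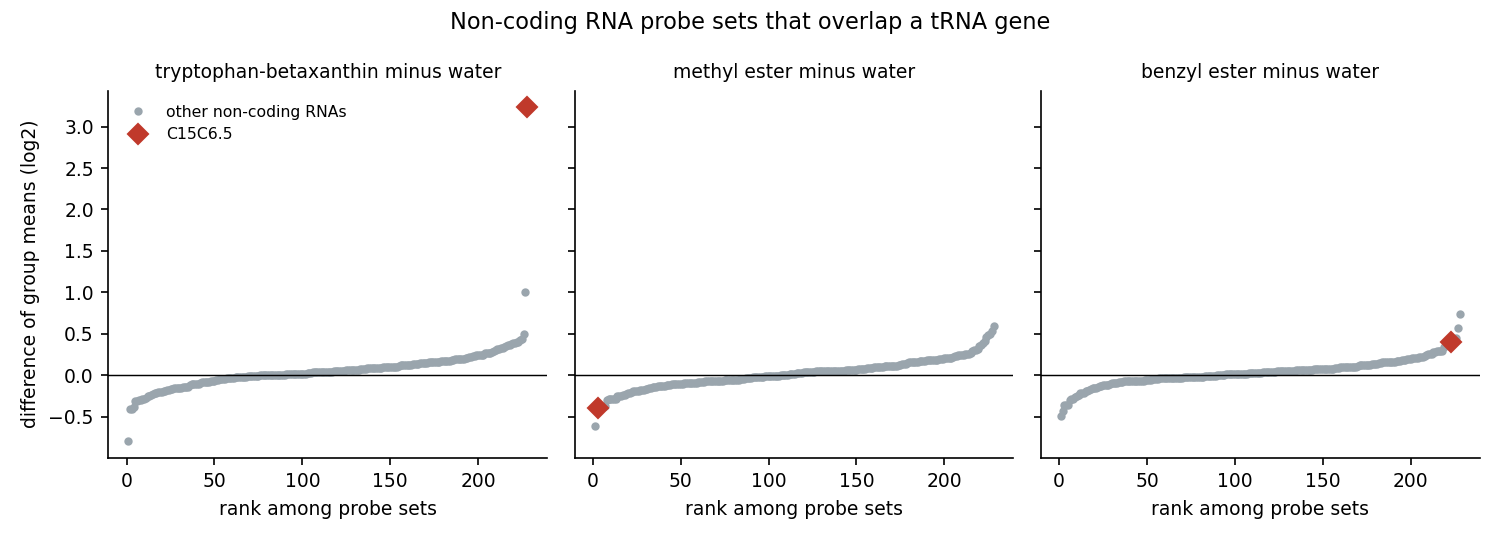
Difference from water (log2, vertical axis) of the 228 non-coding RNA probe sets that overlap a tRNA gene, ordered by rank (horizontal axis) in each of the 3 comparisons, with C15C6.5 as a diamond. C15C6.5 lies at 3.23 with tryptophan-betaxanthin, the difference it was chosen for, and at -0.40 and 0.40 with the methyl and benzyl esters, within the spread of the others.

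The 3 genes did not follow one another closely. Over the 11 arrays Pearson's r was 0.72 between ugt-3 and C15C6.5, 0.47 between ugt-3 and gst-35, and 0.30 between gst-35 and C15C6.5. Over the 9 compound arrays it was 0.72, 0.29 and 0.15. These are descriptions, since arrays of a group share their treatment and the genes were chosen on 5 of the arrays.

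The pattern most like that of ugt-3 belonged to M03A1.8 (r = 0.97 over 11 arrays), a protein-coding gene on chromosome II. M03A1.8 had signals of 6.12, 6.19 and 6.01 with tryptophan-betaxanthin, 4.80, 3.73 and 3.68 in the methyl ester arrays, 5.74, 5.78 and 4.05 in the benzyl ester arrays, and 4.02 and 3.96 with water. It shared with ugt-3 its high benzyl ester signals in trials 1 and 2 and its low signal in trial 3. The next were ZK742.3 (r = 0.93), the nucleoside transporter gene ent-4 (0.93), C40H1.7 (0.91) and the cathepsin B-like protease gene cpr-8 (0.90). ZK742.3 and M03A1.8 were also high in the order of rise with tryptophan-betaxanthin, at 1.82 and 2.12, whereas ent-4, C40H1.7 and cpr-8 moved little, with differences of 0.62, 0.44 and 0.66.

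For gst-35 the closest pattern over the 11 arrays was that of a UDP-glucuronosyltransferase gene, ugt-21 on chromosome IV (r = 0.93). Over the 9 compound arrays its r was 0.81, and its Spearman correlation over the 11 arrays was 0.66. By either measure ugt-21 was not among the 5 closest genes. ugt-21 had signals of 5.31, 4.86 and 4.78 with tryptophan-betaxanthin, 4.73, 4.81 and 4.52 in the methyl ester arrays, 4.96, 4.97 and 4.06 in the benzyl ester arrays, and 3.87 and 3.67 with water. Like gst-35 it was above water with all 3 compounds, with its lowest compound array in the third trial of the benzyl ester. Its differences from water were 1.21 with tryptophan-betaxanthin, 0.92 under the methyl ester and 0.89 under the benzyl ester. The other 4 were nuaf-5 (r = 0.84), ZK218.3 (0.82), the methionine synthase reductase gene mtrr-1 (0.81) and T10B5.8 (0.81).

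The patterns most like C15C6.5 were those of 2 other non-coding RNAs, F31C3.15 (r = 0.89) and F09E5.21 (0.89), and of the protein-coding genes C10F3.7 (0.89) and mct-3 (0.87). The last of the 5 was dhs-12 (0.86), for which the gene table gave no class. F31C3.15 had signals of 10.34, 10.53 and 10.77 with tryptophan-betaxanthin, 9.45, 9.57 and 9.79 in the methyl ester arrays, 9.72, 9.27 and 9.92 in the benzyl ester arrays, and 10.07 and 9.91 with water. Its highest array, like that of C15C6.5, was the third trial of tryptophan-betaxanthin, though its difference from water was 0.55, against 3.23 for C15C6.5. Over the 9 compound arrays alone, 1 of the 5 genes was kept for ugt-3, 1 for gst-35 and 3 for C15C6.5, so the order of likeness depends on which arrays enter.

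**Figure D5:**
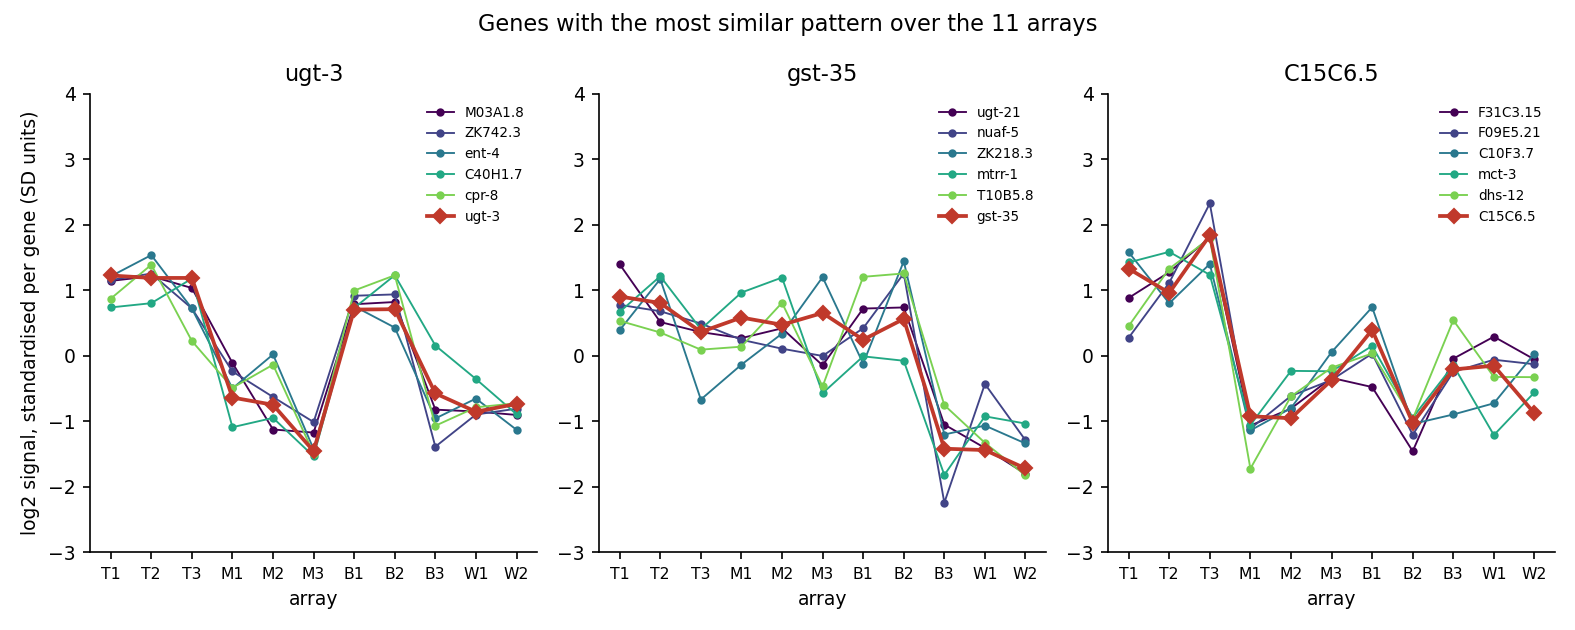
Log2 signal standardised per gene (SD units, vertical axis) over the 11 arrays, where T, M, B and W stand for tryptophan-betaxanthin, methyl ester, benzyl ester and water and the digit for the trial; each of the 3 genes is drawn with the 5 genes of the highest Pearson's r. M03A1.8 follows ugt-3 (r = 0.97), ugt-21 follows gst-35 (r = 0.93, but 0.81 over the 9 compound arrays) and F31C3.15 follows C15C6.5 (r = 0.89).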

How the data were processed

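Total RNA of whole animals was hybridised to 11 C. elegans Gene 1.1 ST arrays. The deposited table holds log2 signals per probe set, which the authors made with RMA (Affymetrix Expression Console in the submitters' notes, Transcriptome Analysis Console in the study's methods). The sources used here give neither their versions nor the genome build. These signals were tested as deposited. Of 29317 probe sets, 26761 with a gene symbol were tested (26281 with 1 symbol, 480 with several), and 2556 without one were left out. No arrays held identical values. The 4 groups entered 1 linear model (lmFit and eBayes of limma 3.58.1, R 4.3.3, two-sided), with Benjamini-Hochberg adjustment over all tested probe sets and a threshold of 0.05. It was tested on simulated data with known changes. Arrays give no counts, so their number limits the precision, and the background level was not measured.

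Arrays with the same trial number deviated together between the esters (correlations of 0.501, 0.235 and 0.742), so the trial number was taken as pairing them. Different numbers also correlated between trials 1 and 2 (0.431 and 0.497), so it is chiefly trial 3 that stood apart. Water, with 2 trials, was not paired (-0.047 to 0.134). Named were the 3 genes, the next 3 below them in the order of rise, the 5 most similar patterns among single-gene probe sets at or above the median signal, the measured neighbours, and list genes with the smallest p. Likeness was Pearson's r. Neighbours and overlaps came from the RefSeq gene table. Alternatives were the trial block, other arrays in the fit, array weights, a trended robust prior, other normalisations, filters and arrays left out. The planned tests of the 3 genes against water were not used, since the water arrays took part in choosing them. The genes and lists were chosen with earlier results of these data known. A planned comparison of related proteins was not made.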

Additional observations from a re-analysis of the deposited data

How the results depend on the processing

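Of 681 alternative values, 516 kept their direction and side of the threshold, or stayed close. With the trial number as a replicate block, which pairs the esters but not water, ugt-3 was 5.88 under tryptophan-betaxanthin and 0.20 under the methyl ester (a turn in sign), gst-35 was 2.74 with the methyl ester and ugt-3 3.45 with the benzyl ester. The counts of probe sets past the threshold for tryptophan-betaxanthin, methyl ester and benzyl ester against water and between the esters were 9, 319, 343 and 63 with the block (1, 69, 151 and 40 without it), and 793, 0, 0 and 1 with only the compared arrays. With array weights ugt-3 was 0.066 under the methyl ester and 3.48 under the benzyl ester, gst-35 was 2.45 with the methyl ester, and the counts against water were 177, 1235 and 1537. The arrays of the third trial had the lowest weights (methyl ester 0.351, benzyl ester 0.334). For tryptophan-betaxanthin the count was 3 with a trended robust prior and 3 with cyclic loess. Without the third trial, chosen after seeing the data, ugt-3 was 0.27 for the methyl ester, 3.97 for the benzyl ester and -3.70 between the esters (limma adjusted p = 2.87e-05). That p also rested on the small spread of the tryptophan-betaxanthin and water arrays, which chose ugt-3, so nothing is read from it. With only the ester arrays of all trials the limma adjusted p was 0.99997. In the fit without the third trial gst-35 was 2.42 and 2.27 with the methyl and benzyl esters, and the counts were 136, 616, 1455 and 123. The causes were not tested, beyond the fewer arrays in the fit.

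With 1 array left out, tryptophan-betaxanthin minus water ranged from 5.12 to 5.43 for ugt-3, 2.44 to 2.79 for gst-35 and 2.61 to 3.86 for C15C6.5. Methyl ester minus water ranged from -0.81 to 0.27, 2.30 to 2.62 and -1.02 to 0.22 for the same genes, and benzyl ester minus water from 2.27 to 3.97, 1.14 to 2.27 and -0.22 to 1.04. Methyl ester minus benzyl ester ranged from -4.38 to -2.57, 0.19 to 1.33 and -1.44 to -0.23. The counts ranged from 0 to 11, 0 to 135, 16 to 726 and 24 to 54, and without the first or the second water array they were 1 and 0 (methyl ester) and 16 and 24 (benzyl ester). Among the 5 most similar genes, 1 for ugt-3, 1 for gst-35 and 3 for C15C6.5 were shared when the 9 compound arrays were used, and 1, 1 and 1 with Spearman's rank correlation. Of the 18 calls of list genes, 17 were lost without either water array, and all 18 with only the compared arrays.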

Other observations

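folt-2 and C35A5.3 lay just outside the 3 genes in the order of rise and were higher with the benzyl ester than with tryptophan-betaxanthin. folt-2 had signals of 7.62, 8.10 and 7.93 with tryptophan-betaxanthin, 6.04, 6.18 and 5.05 in the methyl ester arrays, 9.06, 9.23 and 8.83 in the benzyl ester arrays, and 5.95 and 5.59 with water. C35A5.3 had 5.93, 6.23 and 6.26 with tryptophan-betaxanthin, 5.25, 4.82 and 5.13 in the methyl ester arrays, 7.17, 7.60 and 7.09 in the benzyl ester arrays, and 4.15 and 4.29 with water. In both genes the benzyl ester array of the third trial was close to those of the earlier trials, unlike in ugt-3 and gst-35. These differences were not tested.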
